A study of Mus musculus with 6 samples.

Results

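The transcripts of the mitochondrial genome were examined in whole hearts of E13.5 mouse embryos. The members are all rows of the deposited count table whose gene name starts with mt-, which are 37 of its 46983 rows: 13 protein-coding genes, 2 rRNA genes and 22 tRNA genes. The mRNA, rRNA and tRNA rows are described apart, since a library kit does not capture these kinds of RNA alike. Each library was made from 1 heart. The mutant hearts (replicates 1, 5 and 10) came from embryos that carry Tnnt2 Cre and floxed Wt1. The control hearts (replicates 2, 3 and 5), called wild type in the labels and here, were described in the study's methods as Cre-negative embryos with floxed Wt1 alleles, so the floxed alleles are shared by both groups. Both groups were of the C57BL/6 x DBA/2 background. Tnnt2 drives Cre in cardiomyocytes, and the study's methods and results also place its recombination in a fraction of epicardial cells. In whole hearts, fewer cells of a type and less RNA per cell cannot be told apart.

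The mitochondrial genome is a small circle that lies in many copies in each mitochondrion. Both strands are transcribed as long precursors, which are cut largely at the tRNAs that stand between the other genes, and most mRNAs then receive a poly(A) tail inside the mitochondrion. All 13 proteins are core subunits of the respiratory chain and ATP synthase, whose other subunits come from nuclear genes, and cardiomyocytes are rich in mitochondria. Of the 37 rows, 28 lie on the strand read by the heavy-strand precursor and 9, which are mt-Nd6 and 8 tRNAs, on the other. The tRNA genes were 59 to 75 bases long, and 18 of the 22 had an annotated gene within 5 bases on both sides.

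Part of the mouse mitochondrial genome also stands in the nuclear genome, and the sequences that bear on the counts are shown first. On GRCm38, the stretch chr1:24611535-24616197 (4663 bases, minus strand) holds 7 annotated copies that together run along chrM:6381-11042 (4662 bases). In all, 6 mRNA genes (mt-Co2, mt-Atp8, mt-Atp6, mt-Co3, mt-Nd3 and mt-Nd4l) and 5 tRNA genes lie inside that range, while mt-Co1 (492 bases) and mt-Nd4 (876 bases) reach into it. This division was made after the values had been seen and carries no test. Sequences are those of GENCODE M21, and the sequence between the annotated copies was not compared. The copies of mt-Co2 (Gm28661, 681 bases), mt-Atp6 (Gm10925, 678 bases), mt-Co3 (Gm28437, 783 bases), mt-Nd4l (Gm10222, 294 bases) and mt-Nd4 (Gm28439, 876 bases) had 0 mismatches. The following 150 bases of mt-Co2, the length of 1 read, are at chrM:7213-7362 and stand letter for letter in Gm28661, so a read of this length from either place has the same sequence.
mt-Co2: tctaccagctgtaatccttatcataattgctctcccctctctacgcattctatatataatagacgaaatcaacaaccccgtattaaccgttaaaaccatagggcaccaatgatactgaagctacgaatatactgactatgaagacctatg
The copy of mt-Nd3, Gm28438 (345 bases), had 1 mismatch, T3C, with positions counted from 1 at the 5′ end of the mitochondrial gene and its base given first. The first 62 bases of mt-Nd3 (chrM:9459-9520, plus strand) and the matching bases of the copy (chr1:24613058-24613119, minus strand) are shown with that base in capitals.
mt-Nd3: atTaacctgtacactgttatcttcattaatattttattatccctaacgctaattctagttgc
Gm28438: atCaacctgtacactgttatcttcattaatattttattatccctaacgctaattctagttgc
The copy of mt-Co1, Gm29216 (492 bases), had 6 mismatches, T1056A, C1057T, A1059G, A1060G, C1062A and A1066T, counted in the same way, and all lay near the start of the shared part.

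The sequence also shows overlap between mitochondrial genes on 1 precursor. The last bases of mt-Atp8 are also the first bases of mt-Atp6, and those of mt-Nd4l the first of mt-Nd4. In mt-Atp8 (chrM:7766-7969, plus strand, whole gene) and in the last 60 bases of mt-Nd4l (chrM:10114-10173, plus strand) the shared bases are in capitals.
mt-Atp8: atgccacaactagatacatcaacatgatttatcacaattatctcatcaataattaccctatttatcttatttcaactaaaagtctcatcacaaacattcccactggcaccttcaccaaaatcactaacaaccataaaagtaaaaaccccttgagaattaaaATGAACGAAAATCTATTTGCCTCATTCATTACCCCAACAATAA
mt-Nd4l: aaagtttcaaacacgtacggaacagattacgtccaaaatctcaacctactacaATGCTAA
The end of the sequence carries a pair of adjoining tRNA genes on opposite strands, the threonine tRNA mt-Tt (chrM:15289-15355, plus strand) and the proline tRNA mt-Tp (chrM:15356-15422, minus strand), and its start carries the phenylalanine tRNA mt-Tf (chrM:1-68, plus strand). They are shown because only mt-Tp among all tRNA rows had counts.
mt-Tt: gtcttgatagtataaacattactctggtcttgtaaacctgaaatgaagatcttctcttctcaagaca
mt-Tp: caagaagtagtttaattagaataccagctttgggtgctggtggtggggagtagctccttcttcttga
mt-Tf: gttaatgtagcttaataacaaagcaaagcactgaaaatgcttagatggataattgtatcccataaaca

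The total count of a heart lay between 44244665 and 56373393. Wild type replicate 5 stood apart in its trend with gene length. Over 11999 genes with a mean log2 CPM above 2, Spearman's rho was taken between gene length and a heart's deviation from the mean of the 6 hearts. It was -0.55 in wild type replicate 5, -0.06 in mutant replicate 10 and -0.007 in mutant replicate 1. It ran the other way in mutant replicate 5 (0.46) and wild type replicates 2 (0.38) and 3 (0.31). The mean includes every heart, so 1 extreme heart shifts the values of the others. Blood differed as well, with 10 erythroid markers summing to 39055 CPM in wild type replicate 5 and 40417 CPM in mutant replicate 10 and to 12514 to 17262 CPM in the others. Hepatocyte markers summed to 791 CPM in wild type replicate 3 and to 1.40 to 21.2 CPM elsewhere. The heart label was met in all libraries, since 17 cardiomyocyte markers were all present and summed to 33262 to 38126 CPM. The targeted gene, Wt1, had 40.0, 32.9 and 19.97 CPM in wild type replicates 2, 3 and 5 and 17.7, 33.3 and 35.7 CPM in mutant replicates 1, 5 and 10, and a count over the whole gene does not show recombination. CPM of single genes here are counts scaled to a common library size after TMM normalization. CPM of a whole gene list, as for the cell markers and the nuclear subunits, are summed counts scaled to the total count of each heart, without TMM.

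The share of all counts that came from the mitochondrial genome overlapped between the groups. It was 3.55%, 3.41% and 3.80% in wild type replicates 2, 3 and 5 and 2.85%, 4.27% and 3.56% in mutant replicates 1, 5 and 10. The mutants held both the lowest and the highest heart, with the wild type hearts between them. The means were 3.59% ± 0.200 (SD, n = 3) in wild type and 3.56% ± 0.709 (SD, n = 3) in mutants, with p = 1.0 in a two-sided exact permutation test over the 20 splits of the hearts. With 3 hearts against 3 such a test cannot go below 0.1, so a p-value here could not have passed the 0.05 threshold. It gives the share of splits of these hearts whose difference of means is at least as large as the observed one. Nearly all of these counts were mRNA. The 13 mRNAs took 3.47%, 3.31% and 3.64% of counts for wild type (replicates 2, 3 and 5) and 2.75%, 4.13% and 3.44% in mutant replicates 1, 5 and 10 (exact permutation p = 0.9).

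**Figure D1:**
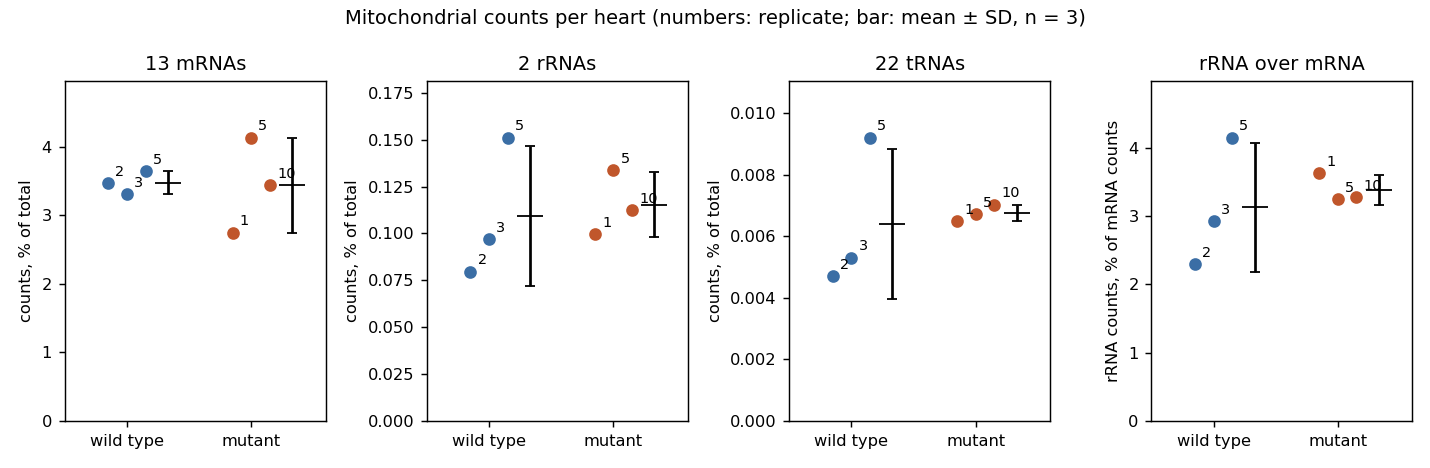
Percent of all counts in each heart from the 13 mitochondrial mRNAs, the 2 rRNAs and the 22 tRNAs, and rRNA counts as a percent of mRNA counts. Points are hearts with their replicate numbers, and bars give the mean ± SD of 3 hearts. The groups overlap in each panel, mutant replicates 1 and 5 span the mRNA range from 2.75% to 4.13%, and wild type replicates 2 and 5 span the range of the other panels.

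Across the members, 16 rows passed the filter on low counts, which are all 13 mRNAs, both rRNAs and mt-Tp. The quasi-likelihood test of edgeR gave none of the 16 an adjusted p under 0.05, and the same was so for all 17473 genes tested (0%). None had an unadjusted p under 0.05, against 5.73% of all genes tested, and none had groups that did not overlap, against 11.2% of all genes. DESeq2 and limma-voom also gave 0 of the 16 an adjusted p under 0.05, where DESeq2 called 0.69% of the genes it adjusted for and limma-voom 0%. An unadjusted p under 0.05 was found for 1 row (mt-Atp8) by DESeq2, against 4.32% of all genes, and for 0 by limma-voom, against 5.85%. The fitted log2 fold change of mutant over wild type was above 0 for 8 rows and below 0 for 8, with a median of -0.01 beside -0.00 over all genes. The split depended on single hearts: with one left out at a time, 4, 3 and 13 of the 16 were above 0 in the absence of wild type replicates 2, 3 and 5, and 10, 3 and 7 in the absence of mutant replicates 1, 5 and 10. The median then ran from -0.21 in the absence of mutant replicate 5 to 0.15 in that of mutant replicate 1. The adjusted p-values of edgeR were between 0.911 and 0.997.

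Complex I, NADH dehydrogenase, takes 7 of its subunits from the mitochondrial genome. Their mRNAs made up 1.37%, 1.30% and 1.38% of counts for wild type (replicates 2, 3 and 5) and 1.06%, 1.68% and 1.31% in mutant replicates 1, 5 and 10 (exact permutation p = 1.0). The mutant range enclosed the wild type range. mt-Nd1, a membrane arm subunit next to the quinone site, had 4949, 4420 and 5511 CPM in wild type replicates 2, 3 and 5 and 3640, 6062 and 4922 CPM in mutant replicates 1, 5 and 10. mt-Nd2 had 2324, 2333 and 2554 CPM against 1799, 3062 and 2406 CPM in the same order. These antiporter-like and quinone-side subunits thus had their extremes in the mutants, at replicates 1 and 5. mt-Nd4, another antiporter-like subunit, had 2219, 2044 and 2061 CPM in wild type and 1645, 2680 and 2166 CPM in mutants. mt-Nd5, the largest subunit gene, had 3343, 3362 and 3048 CPM in wild type and 2827, 4109 and 3741 CPM in mutants. Mutant replicate 1 was again the lowest heart and mutant replicate 5 the highest for both genes. mt-Nd6, the single protein gene on the light-strand precursor, had 680, 572 and 647 CPM in wild type and 442, 775 and 631 CPM in mutants. Its counts were 2.03%, 1.80% and 1.80% of the heavy-strand mRNA counts in wild type and 1.67%, 1.92% and 1.77% in mutants, which overlap (exact permutation p = 0.4). The sources used here do not say whether counting used strand, so reads of mt-Nd6 and reads of the opposite strand at the same place cannot be told apart.

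The 2 remaining complex I genes were scarce. mt-Nd3 had 7.90, 7.09 and 19.2 CPM in wild type replicates 2, 3 and 5 and 8.75, 10.9 and 5.54 CPM in mutant replicates 1, 5 and 10. Wild type replicate 5 was high and the other 5 hearts lay between 5.54 and 10.9 CPM. mt-Nd4l rested on 139, 129 and 71 counts in wild type and on 80, 122 and 49 in mutants, fewer than any other complex I row. Counting error is therefore larger for mt-Nd4l than for those rows, and its part in the spread between hearts was not tested. Their fitted log2 fold changes were -0.44 ± 0.40 (SE) for mt-Nd3 and -0.39 ± 0.35 (SE) for mt-Nd4l, with an edgeR adjusted p of 0.985 for both.

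Complex III has 1 mitochondrial subunit, cytochrome b. mt-Cytb had 5549, 4848 and 6198 CPM in wild type replicates 2, 3 and 5 and 4086, 6735 and 5948 CPM in mutant replicates 1, 5 and 10. The highest and the lowest heart were both mutant, and the fitted log2 fold change was 0.02 ± 0.20 (SE). It took 0.563%, 0.495% and 0.617% of counts in wild type and 0.416%, 0.676% and 0.564% in mutants.

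Complex IV, cytochrome c oxidase, has 3 mitochondrial subunits that form its catalytic core. mt-Co1, the subunit that holds the oxygen-reducing centre, was the row with the most counts of all in 4 of the 6 hearts and the next after the first in the others. It had 14931, 14596 and 16224 CPM in wild type replicates 2, 3 and 5 and 12312, 17399 and 16300 CPM in mutant replicates 1, 5 and 10. The wild type mean of 15250 ± 860 CPM (SD, n = 3) and the mutant mean of 15337 ± 2677 CPM (SD, n = 3) differed by less than either spread. The fitted log2 fold change was 0.01 ± 0.17 (SE), and the 95% interval of the fold ran from 0.768 to 1.32. mt-Co2, which takes electrons from cytochrome c, had 86.8, 116 and 154 CPM in wild type and 91.4, 147 and 84.6 CPM in mutants. mt-Co3, a structural core subunit, had 45.0, 71.3 and 136 CPM in wild type and 78.4, 86.8 and 51.8 CPM in mutants. Wild type replicate 5 was the highest heart for mt-Co2 and mt-Co3, unlike for mt-Co1. The complex IV mRNAs together, which are nearly all mt-Co1, took 1.53%, 1.51% and 1.64% of counts in wild type and 1.27%, 1.77% and 1.56% in mutants (exact permutation p = 1.0).

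Complex V, ATP synthase, has 2 mitochondrial subunits, both of its membrane part. mt-Atp6, which forms the proton path, had 31.2, 42.1 and 73.8 CPM in wild type replicates 2, 3 and 5 and 36.8, 55.9 and 30.5 CPM in mutant replicates 1, 5 and 10. mt-Atp8, a small accessory subunit, rested on 193, 38 and 71 counts in wild type and on 43, 56 and 32 in mutants. By CPM wild type replicates 2 and 5, at 3.43 and 1.61, lay above all mutants, which had 0.636 to 1.07, and wild type replicate 3, at 0.661, lay among them. Its log2 fold change of -1.17 ± 0.55 (SE) was the largest in size of the 16 rows and had the smallest p of them, an unadjusted 0.0662 and an adjusted 0.911 in edgeR. With a heart left out, the log2 fold change ran from -1.58 without wild type replicate 3 (edgeR unadjusted p = 0.00499, adjusted p = 0.615) to -0.42 without wild type replicate 2. Together the complex V mRNAs took 0.0029% to 0.0075% of counts over the 6 hearts (exact permutation p = 0.6).

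The plot of fitted changes shows how much less precise the scarce rows are. For the 7 mRNAs that lie outside the copied stretch or only reach into it, the log2 fold change was between -0.04 and 0.13 with SE of 0.16 to 0.20, 5 above 0 and 2 below. Their 95% intervals reached at most from a fold of 0.708 to one of 1.42. All 6 mRNAs inside the stretch had a fitted value below 0, from -1.17 to -0.14, with SE of 0.26 to 0.55, and none passed the test. Leaving out wild type replicate 5 turned 4 of these 6 above 0, to 0.09 for mt-Co2, 0.16 for mt-Atp6, 0.31 for mt-Co3 and 0.16 for mt-Nd3.

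**Figure D2:**
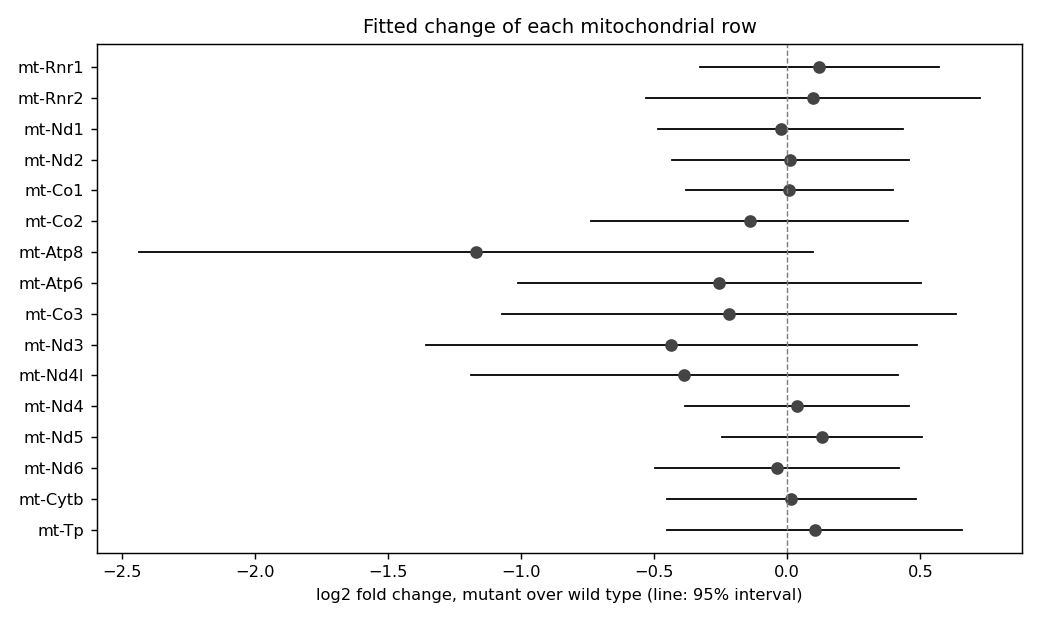
Fitted log2 fold change of mutant over wild type (horizontal axis) for each of the 16 mitochondrial rows with counts, in the order of the mitochondrial genome from top to bottom. Points are edgeR estimates from 3 hearts against 3 and lines their 95% intervals, all of which include 0, and mt-Atp8 stands lowest at -1.17.

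Both rRNAs, the small-subunit mt-Rnr1 and the large-subunit mt-Rnr2 of the mitochondrial ribosome, were counted at low level. They took 0.0797%, 0.0968% and 0.151% of counts for wild type (replicates 2, 3 and 5) and 0.0996%, 0.134% and 0.113% in mutant replicates 1, 5 and 10 (exact permutation p = 0.8). The wild type hearts included the lowest and the highest. mt-Rnr1 had 317, 373 and 508 CPM in wild type and 359, 491 and 453 CPM in mutants. mt-Rnr2 had 468, 576 and 1010 CPM in wild type and 619, 843 and 734 CPM in mutants. Relative to mitochondrial mRNA the rRNA counts were 2.30%, 2.93% and 4.15% in wild type and 3.63%, 3.24% and 3.27% in mutants, and wild type replicate 5 again lay above all mutants (exact permutation p = 0.7). Without wild type replicate 5 the fitted log2 fold change rose from 0.12 to 0.33 for mt-Rnr1 (edgeR unadjusted p = 0.0428, adjusted p = 0.392). For mt-Rnr2 it rose from 0.10 to 0.49 (edgeR unadjusted p = 0.00897, adjusted p = 0.242). Neither adjusted p passed the threshold, and 0.247% of all genes did without that heart.

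Among the tRNAs, 21 of 22 had 0 counts in every heart, which allows at most 3 counts per heart and covers counting error only. The exception was mt-Tp, whose counts were 2617, 2992 and 4074 for wild type (replicates 2, 3 and 5) and 3319, 3513 and 3734 for mutants (replicates 1, 5 and 10). That is 46.5, 52.0 and 92.6 CPM in wild type and 63.9, 67.0 and 74.2 CPM in mutants, so the mutants lay close together between wild type replicates 3 and 5. The fitted log2 fold change was 0.10 ± 0.24 (SE), and without wild type replicate 5 it was 0.47 (edgeR unadjusted p = 0.000856, adjusted p = 0.117). In position mt-Tp adjoins mt-Tt at 0 bases on one side and has no annotated gene on the other, before the end of the sequence. mt-Tf, at the start of the sequence and 1 base from mt-Rnr1, had 0 counts. Libraries made for mRNA hold few free tRNAs, and the sources used here do not say how reads that touch more than 1 gene were counted. Their part in the 21 empty rows was not tested.

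Compared per length, the rows covered a wide range. In the deposited FPKM, counts scaled by gene length and by the total of each heart, the mean over the 6 hearts was 9885 ± 1055 (SD, n = 6) for mt-Co1, 5132 ± 862 for mt-Nd1, 4851 ± 797 for mt-Cytb, 2322 ± 389 for mt-Nd2, 1864 ± 240 for mt-Nd5, 1549 ± 241 for mt-Nd4 and 1202 ± 213 for mt-Nd6. mt-Tp was listed at 982 ± 234 FPKM, but at 67 bases it is shorter than a read of 150 bases, so its value per length cannot be compared with those of the longer genes. The rRNAs were at 447 ± 121 FPKM for mt-Rnr2 and 435 ± 76.6 FPKM for mt-Rnr1, and neither was the higher in more than 3 of the 6 hearts. Then came the 6 mRNAs inside the copied stretch, from mt-Co2 at 166 ± 45.8 FPKM through mt-Co3 at 99.9 ± 41.6, mt-Atp6 at 66.2 ± 24.8 and mt-Nd3 at 28.5 ± 13.99 to mt-Atp8 at 6.76 ± 5.34 and mt-Nd4l at 6.30 ± 2.05. With mt-Tp set aside, ranges of neighbours in this order overlapped, apart from the steps from mt-Co1 to mt-Nd1, from mt-Cytb to mt-Nd2, from mt-Nd6 to mt-Rnr2 and from mt-Rnr1 to mt-Co2. Within single hearts the order was steadier: each mRNA was above the next mRNA in 6 of 6 hearts, except mt-Nd1 over mt-Cytb in 5 and mt-Atp8 over mt-Nd4l in 2. In the genome mt-Co2 to mt-Nd4l stand between mt-Co1 and mt-Nd4, on the same precursor.

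**Figure D3:**
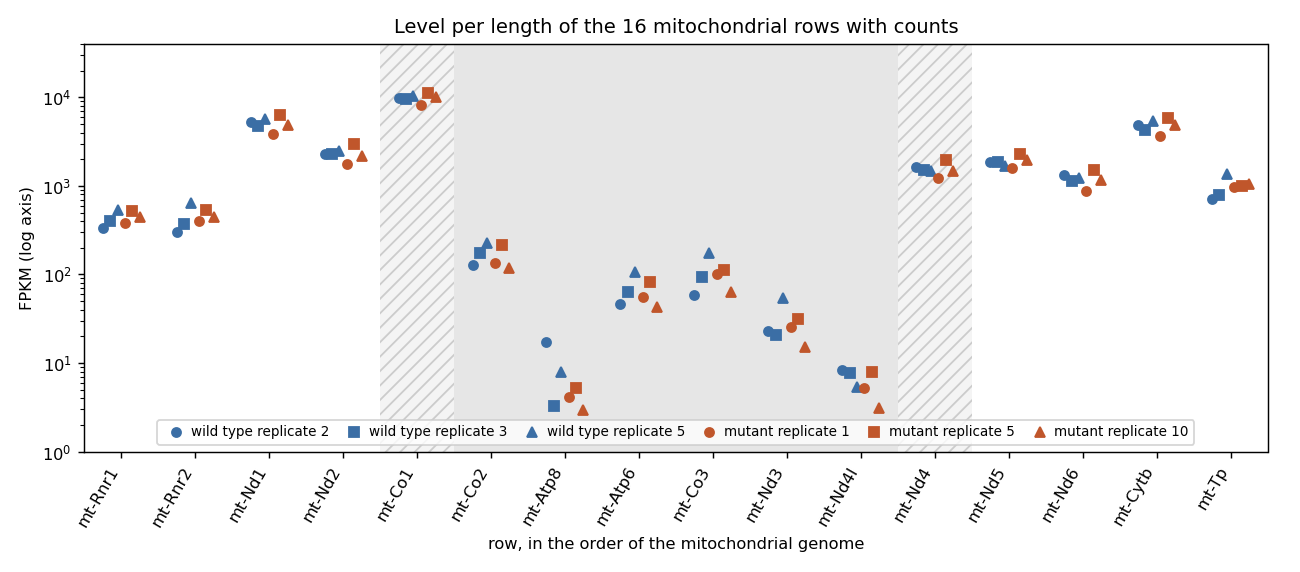
FPKM (log axis) of the 16 mitochondrial rows with counts in the 6 hearts, in the order of the mitochondrial genome. Grey marks the 6 mRNAs inside the stretch along which the annotated chromosome 1 copies run, and hatching the 2 that reach into it. The grey rows have means of 6.30 to 166 FPKM, and the other mRNAs have means of 1202 to 9885 FPKM.

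The scarce mRNAs were those inside the stretch along which the annotated chromosome 1 copies run. Of all windows of 150 bases, 99.4% in mt-Co2, 99.4% in mt-Atp6, 99.8% in mt-Co3, 97.0% in mt-Nd3 and 97.97% in mt-Nd4l stood letter for letter in another annotated transcript. In mt-Nd4 it was 59.2%, in mt-Co1 23.6%, and in mt-Nd1, mt-Nd2, mt-Nd5, mt-Nd6, mt-Cytb and both rRNAs 0%. mt-Atp8 is also at 0%, although it lies inside the stretch, since no annotated transcript covers its own part there. According to the methods the authors kept uniquely mapped reads. The part that this filter has in the low levels was not tested. The 6 mRNAs inside the stretch held 0.723% of the mitochondrial mRNA counts, the 5 outside 48.8% and the 2 that reach into it 50.5%. If the length of mt-Co1 and mt-Nd4 is taken over the bases outside the stretch alone, their FPKM become 14503 ± 1547 (SD, n = 6) and 4251 ± 662 (SD, n = 6). All counts of each gene were kept in this, so both values are too high by whatever was counted inside the stretch.

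Counts were also assigned to the nuclear copies, and for mt-Co2, mt-Co3 and mt-Atp6 the proportion was close to the same in all hearts. Of the summed counts of mt-Co2 and Gm28661, mt-Co2 had 67.8% ± 1.42 (SD, n = 6). mt-Co3 had 57.6% ± 1.24 (SD, n = 6) of its sum with Gm28437. mt-Atp6 had 38.4% ± 1.57 (SD, n = 6) of its sum with Gm10925, and the copy had more counts than the mitochondrial row in 6 of 6 hearts. The shares were more variable for the scarcer pairs, 52.9% to 65.0% for mt-Nd3 with Gm28438 and 31.6% to 54.3% for mt-Nd4l with Gm10222. For the genes that only reach into the stretch, the mitochondrial row had 99.0% to 99.4% of the sum for mt-Nd4 and 99.8% to 99.9% for mt-Co1. In the mt-Atp6 pair both rows had their most counts in wild type replicate 5 and their fewest, unscaled, in mutant replicate 10. The counts of Gm10925 were 2788, 3746 and 4803 for wild type (replicates 2, 3 and 5) and 3076, 4758 and 2769 for mutants (replicates 1, 5 and 10), while mt-Atp6 had 1759, 2423 and 3248 and then 1912, 2932 and 1533. Scaled to the total count of each heart, Gm10925 was lowest in wild type replicate 2 instead. In the mt-Co1 pair, mt-Co1 had its fewest counts in mutant replicate 1 and Gm29216 in mutant replicate 10. The values of the rows inside the stretch are uncertain as levels of the mitochondrial transcript.

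**Figure D4:**
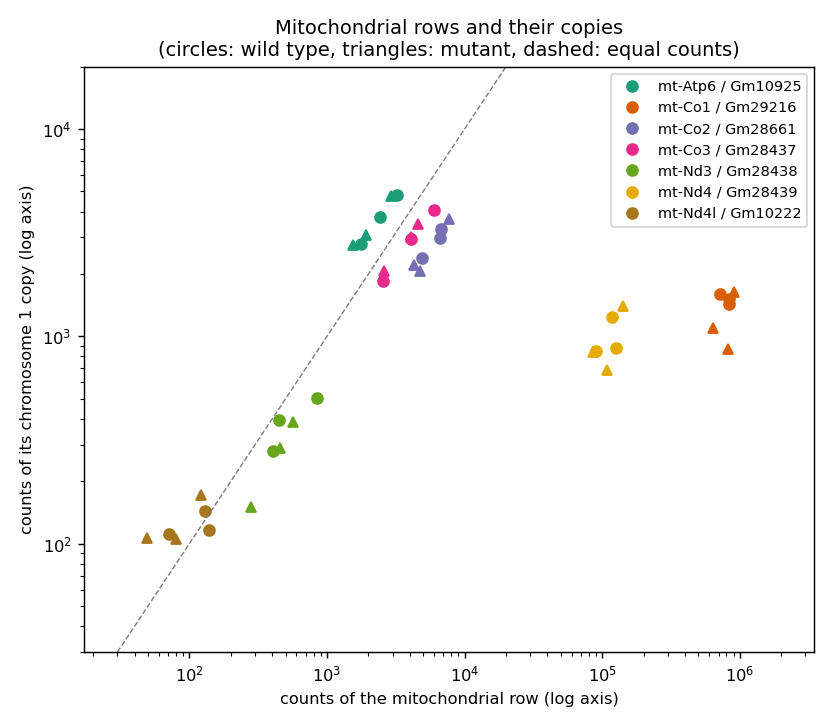
Counts of 7 mitochondrial mRNA rows (horizontal, log axis) and of their annotated copies on chromosome 1 (vertical, log axis), 1 point per heart, circles for wild type and triangles for mutant. The pairs of mt-Co2, mt-Co3, mt-Atp6, mt-Nd3 and mt-Nd4l lie near the line of equal counts, with mt-Atp6 above it in all 6 hearts, while mt-Co1 and mt-Nd4 lie far to its right.

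Between hearts the rows fell into more than 1 pattern, none of which followed the genotype. All 7 mRNAs outside or partly in the copied stretch were lowest in mutant replicate 1 and highest in mutant replicate 5, with median deviations from the mean log2 CPM of -0.41 and 0.32. Their share of all counts had an SD of 0.16 to 0.27 (log2, 6 hearts) and their share of mitochondrial mRNA one of 0.04 to 0.12. The 7 make up nearly all of mitochondrial mRNA, so the latter SD is small in part by construction. Of mitochondrial mRNA counts mt-Co1 made up 42.3% to 45.7%, mt-Cytb 14.96% to 16.9%, mt-Nd1 13.496% to 15.04%, mt-Nd5 8.32% to 10.5%, mt-Nd2 6.63% to 7.44%, mt-Nd4 5.63% to 6.52% and mt-Nd6 1.64% to 1.99%. None of the 13 shares separated the groups.

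Both rRNAs and mt-Tp were instead lowest in wild type replicate 2 and highest in wild type replicate 5, with median deviations of -0.47 and 0.52. Of the 6 mRNAs inside the stretch, 4 were highest in wild type replicate 5 and 2 (mt-Atp8 and mt-Nd4l) in wild type replicate 2, and 5 were lowest in mutant replicate 10. The ratio of the highest to the lowest heart in CPM was 1.41 to 1.75 for the 7 mRNAs of the first pattern and 1.82 to 5.39 for the 6 inside the stretch. The pooled SD of log2 CPM within groups was 0.20 to 0.30 for the 7 and 0.42 to 0.86 for the 6, beside a median of 0.22 over all genes tested and of 0.16 over the tenth of genes with the highest mean level. Wild type replicate 5 was also the heart with the strong trend toward shorter genes and, with mutant replicate 10, the one rich in erythroid markers, and the part of either in these rows was not tested. Mutant replicate 5, the highest heart of the first pattern, had the strongest trend toward longer genes (rho 0.46), and its part was not tested either. Cardiomyocyte markers were 36604 CPM in mutant replicate 1 and 36216 CPM in mutant replicate 5, the hearts at the ends of the first pattern. In the same hearts fibroblast markers were 3237 and 4495 CPM and endothelial markers 988 and 1206 CPM, and their part in the pattern was not tested.

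**Figure D5:**
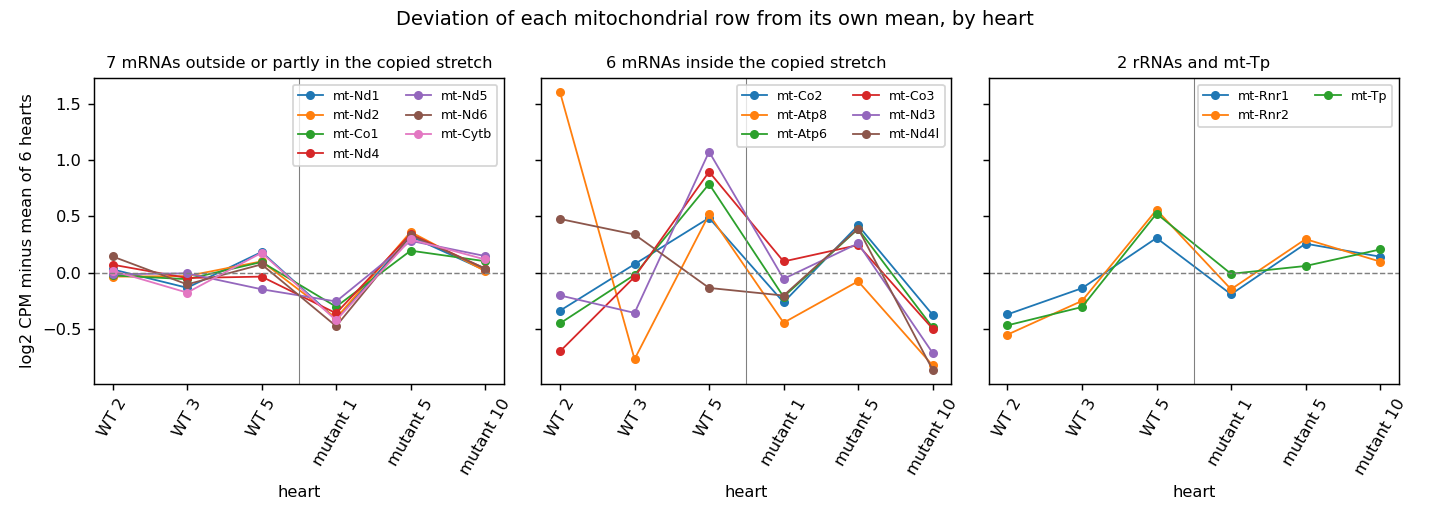
Log2 CPM of each mitochondrial row minus its mean over the 6 hearts (vertical) in each heart (horizontal, wild type left of the line, mutant right). The 7 mRNAs on the left are lowest in mutant replicate 1 and highest in mutant replicate 5, the 6 inside the copied stretch spread widely, and both rRNAs and mt-Tp peak in wild type replicate 5.

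Set against their nuclear partners, mitochondrial mRNAs also overlapped between the groups. Complex I mitochondrial mRNA counts were 268%, 260% and 197% of the summed counts of 36 nuclear complex I subunits in wild type replicates 2, 3 and 5 and 190%, 329% and 238% in mutant replicates 1, 5 and 10 (exact permutation p = 1.0). For complex III the values were 192%, 169% and 147% in wild type and 123%, 223% and 166% in mutants (exact permutation p = 1.0). For complex IV they were 348%, 357% and 250% in wild type and 264%, 397% and 326% in mutants (exact permutation p = 0.9). Wild type replicate 5 and mutant replicate 1 were the low hearts in all of these. In wild type replicate 5 the nuclear sums were high, with 6977 CPM for complex I against 4990 to 5556 CPM in the other hearts, and in mutant replicate 1 the mitochondrial counts were low. The complex V ratio was 0.253% to 0.606% over the hearts (exact permutation p = 0.6), and its mitochondrial side consists of mt-Atp6 and mt-Atp8. Over the 27 shares and ratios tested, the smallest exact permutation p was 0.3, all adjusted p-values were 1.0, and the groups overlapped in every one.

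The nuclear genes that build and serve the mitochondrial genome were read from the same fit, in which 49.8% of all genes had a fold change above 0. No gene of the 8 nuclear lists had an adjusted p under 0.05 in edgeR or in DESeq2. Genes named from a list below were taken from the 3 with its smallest p. Their lack of overlap goes with that choice, and shares over all genes are given for scale only. Among nuclear respiratory chain subunits, 11 of 36 were higher and 25 lower in mutants for complex I (median log2 fold change -0.06), 3 and 6 of 9 for complex III (-0.10), 2 and 15 of 17 for complex IV (-0.15) and 4 and 13 of 17 for complex V (-0.07). These counts rested on wild type replicate 5, the heart with the trend toward shorter genes and the highest nuclear sums. Without it 32 of 36 were higher for complex I (median log2 fold change 0.15), 8 of 9 for complex III (0.19), 13 of 17 for complex IV (0.13) and 13 of 17 for complex V (0.09), and none had an adjusted p under 0.05 in edgeR. In the fit of all hearts an unadjusted p under 0.05 was found for 1 complex I gene and 1 complex IV gene. Ndufa3, an accessory subunit of complex I, had 86.2, 72.8 and 92.5 CPM in wild type replicates 2, 3 and 5 and 63.4, 61.5 and 65.5 CPM in mutant replicates 1, 5 and 10 (edgeR adjusted p = 0.585), and its groups did not overlap with mutants lower, as in 4.59% of all genes. Cox6b2, a complex IV isoform best known from testis, had 15.2, 14.6 and 14.8 CPM in wild type and 11.04, 10.9 and 13.9 CPM in mutants (edgeR adjusted p = 0.851). Its groups did not overlap either, again with mutants lower.

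Factors for transcription and maintenance of mitochondrial DNA numbered 17, of which 2 were higher and 15 lower in mutants, with a median log2 fold change of -0.07, and without wild type replicate 5 they were 8 and 9. With all hearts none had an unadjusted p under 0.05, and the smallest belonged to Rnaseh1, an RNase that removes RNA from RNA-DNA hybrids, with 13.1, 12.9 and 15.1 CPM in wild type and 12.97, 9.48 and 10.5 CPM in mutants. Of 25 genes for RNA processing and stability, 12 were higher and 13 lower, with a median of -0.01 and none under 0.05 unadjusted. Slirp, which stabilizes mitochondrial mRNAs together with Lrpprc, had 11.1, 6.43 and 11.9 CPM in wild type and 7.62, 7.15 and 4.33 CPM in mutants, which overlap. Nsun4, a methyltransferase of mitochondrial ribosomal RNA, had 29.6, 27.7 and 28.1 CPM in wild type and 31.2, 33.4 and 33.9 CPM in mutants (edgeR adjusted p = 0.901), without overlap and with mutants higher, as in 6.61% of all genes.

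Among 19 mitochondrial aminoacyl-tRNA synthetases, which charge the tRNAs, 7 were higher and 12 lower, with a median log2 fold change of -0.01. Wars2, the tryptophan enzyme, had the 1 unadjusted p under 0.05, with 17.2, 17.5 and 16.5 CPM in wild type and 20.1, 19.2 and 20.7 CPM in mutants (edgeR adjusted p = 0.866). Its groups did not overlap with mutants higher, as in 6.61% of all genes. Of 13 regulators of mitochondrial biogenesis, 11 were higher and 2 lower, with a median of 0.08. Without wild type replicate 5, 8 were higher and 5 lower, with a median of 0.11. With all hearts Ppargc1b, a coactivator of the genes for oxidative metabolism, had the 1 unadjusted p under 0.05 there, with 11.5, 11.3 and 7.36 CPM in wild type replicates 2, 3 and 5 and 11.8, 13.8 and 16.1 CPM in mutant replicates 1, 5 and 10 (edgeR adjusted p = 0.862). Its groups also did not overlap, with mutants higher. The wild type value was low in replicate 5, the heart that also stood apart in its length trend. Of the marker lists for other cells, macrophage markers had 7 of 8 genes higher in mutants (median log2 fold change 0.60), with sums of 120 to 182 CPM in wild type and 206 to 228 CPM in mutants. None of the 8 had an adjusted p under 0.05 in edgeR, against 0% of all genes, and 2 had one in DESeq2, against 0.69%. An unadjusted p under 0.05 in edgeR was found for 7 of the 8, all higher in mutants, against 5.73% of all genes. Endothelial markers summed to 792 to 1100 CPM in wild type and 988 to 1206 CPM in mutants, and fibroblast markers to 2242 to 3242 CPM and 3237 to 4495 CPM. The 8 fibroblast markers did not move one way: 5 were higher and 3 lower in mutants, and DESeq2 called 2 of them in opposite directions, where edgeR called 0. Tcf21, a transcription factor of epicardial cells and fibroblasts, had 52.8, 43.4 and 57.6 CPM in wild type and 28.0, 22.8 and 20.8 CPM in mutants (DESeq2 adjusted p = 1.6e-07, edgeR adjusted p = 0.113). Col1a1, a collagen chain, had 643, 695 and 367 CPM in wild type and 746, 1272 and 1280 CPM in mutants (DESeq2 adjusted p = 0.0498, edgeR adjusted p = 0.652). Neither Tcf21 nor Col1a1 had overlapping groups. Of all genes, 4.59% did not overlap with mutants lower and 6.61% with mutants higher. The macrophage sums did not overlap between the groups, while the shares of mitochondrial mRNA did. How often sums of gene lists fail to overlap was not computed.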

How the data were processed

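RNA of 6 whole hearts, 3 mutant and 3 wild type, was sequenced as paired reads of 150 bases after preparation with a TruSeq RNA kit. Per the methods, the authors trimmed reads with Trim Galore 0.4.3.1, aligned them to GRCm38 with STAR 2.6.0b-2 and assigned uniquely mapped reads to GENCODE M19 genes with featureCounts of Rsubread 1.28.1, while the submitters' processing notes name HTSeq. The authors deposited the count of each gene without normalization, and FPKM that equal the count divided by a fixed gene length and the total count. For the 16 mitochondrial rows with counts that length was the annotated one. All sample columns were matched to a heart (0 left over).

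Counts were fitted with edgeR 4.0.16 (R 4.3.3; quasi-likelihood test, TMM, filterByExpr with its minimum count at 10 and minimum total at 15, two-sided, Benjamini-Hochberg threshold 0.05), and tested on simulated data. Shares and ratios were compared by exact permutation over hearts. DESeq2 1.42.0, limma 3.58.1 (voom, and trend on log2 FPKM plus 1 or 0.1), other library sizes and each heart left out were alternatives. Positions and transcript sequences are from GENCODE M21 on GRCm38. Depth was 44244665 to 56373393 counts, and 3 counts were taken as the floor. All mt- rows are accounted for, tRNAs by name where they exceed 3 counts. Of the gene lists, members past the threshold, otherwise up to 3 with the smallest p, could be named. The members and lists were chosen with earlier results of these data known.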

Additional observations from a re-analysis of the deposited data

How the results depend on the processing

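No mitochondrial row passed an adjusted p under 0.05 under any of the settings run, so no call was lost or gained. No paired analysis was possible because the labels name no litter or pair of hearts, and a shared replicate number does not make a pair. Of 363 values computed under alternatives, 286 stayed on the same side of 0 or of the threshold, 71 changed sign, of which 52 when a heart was left out, and 6 counts moved. All sign changes were of values that had not passed a test. Across all genes, the count with an adjusted p under 0.05 was 0 in the main fit, 133 with DESeq2 and 34 without the filter on low counts, and 0 to 44 when a heart was left out, with 44 without wild type replicate 5. The cause was not tested.

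Leaving out each heart in turn gave these ranges of the log2 ratio of mutant over wild type. For the share of counts it ran from -0.16 to 0.13 for all mitochondrial rows, -0.17 to 0.12 for mRNA, -0.10 to 0.39 for rRNA, -0.10 to 0.43 for tRNA, -0.19 to 0.15 for complex I, -0.19 to 0.15 for complex III, -0.14 to 0.094 for complex IV and -0.60 to 0.080 for complex V. For rRNA over mRNA it ran from -0.065 to 0.37, and for mt-Nd6 over heavy-strand mRNA from -0.13 to -0.010. Against nuclear subunits it ran from -0.18 to 0.23 for complex I, -0.23 to 0.20 for complex III, -0.11 to 0.18 for complex IV and -0.58 to 0.031 for complex V. Of the 13 mRNA shares of mitochondrial mRNA, 0 to 3 had groups that did not overlap, which were 3 without mutant replicate 5, and 2 and 1 in the absence of wild type replicates 3 and 5. Groups with a heart left out separate more easily, the 13 shares depend on each other, and no share over all genes was computed for these settings. The counts are therefore not read as a result. Fitted log2 fold changes with a heart left out ran from -0.018 to 0.33 for mt-Rnr1, -0.11 to 0.49 for mt-Rnr2, -0.22 to 0.15 for mt-Nd1, -0.20 to 0.19 for mt-Nd2, -0.10 to 0.15 for mt-Co1, -0.44 to 0.089 for mt-Co2, -1.58 to -0.42 for mt-Atp8, -0.55 to 0.16 for mt-Atp6, -0.52 to 0.31 for mt-Co3, -0.68 to 0.16 for mt-Nd3, -0.76 to -0.13 for mt-Nd4l, -0.16 to 0.20 for mt-Nd4, 0.0052 to 0.27 for mt-Nd5, -0.25 to 0.15 for mt-Nd6, -0.15 to 0.20 for mt-Cytb and -0.077 to 0.47 for mt-Tp. With summed FPKM in place of counts, the log2 ratio turned to 0.021 for all mitochondrial rows, 0.013 for mRNA, 0.016 for complex I, 0.022 for complex III and 0.0071 for complex IV. Complex I also turned to 0.00038 when mitochondrial rows were left out of the total and to 0.0036 without the 10 largest nuclear genes. Under limma-voom mt-Nd2, mt-Co1 and mt-Cytb turned to -0.022, -0.0065 and -0.011, and mt-Co1 to -0.0012 with library sizes without mitochondrial rows. Under the limma-trend fit on log2 FPKM plus 1, mt-Nd2, mt-Co1, mt-Nd4 and mt-Cytb were -0.050, -0.035, -0.019 and -0.038, and with 0.1 added in place of 1 they were -0.050, -0.035, -0.019 and -0.038. Each heart was also left out for the nuclear gene lists, an alternative chosen after seeing the data, and the genes higher in mutants then numbered 5 to 32 of 36 for complex I, 2 to 8 of 9 for complex III, 0 to 13 of 17 for complex IV and 2 to 13 of 17 for complex V, the highest without wild type replicate 5 in all of these. In depth, the 7 mRNAs outside or partly in the copied stretch rest on at least 22982 counts in each heart, mt-Atp8 on 32 to 193, mt-Nd4l on 49 to 139 and 21 tRNAs on 0.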
